A study of Mus musculus with 4 samples.

Results

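The genes described here are Cish, Socs1, Socs2, Socs3, Pim1 and Bcl2l1, the feedback inhibitors of cytokine signalling and classical target genes of the transcription factor STAT5 that were listed by name. They were taken from the gene count table by their gene names, which gave 6 of its 54532 genes. All 6 had at least 10 reads in at least 1 library and so were among the 13715 genes compared, but Cish was kept only through the libraries in which it was high.

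Cytokines such as GM-CSF, IL-3, IL-4 and IL-6 signal through receptors that activate Janus kinases (JAKs), which phosphorylate STAT proteins that then enter the nucleus and switch on target genes. Cish and the Socs genes are among those targets, and the proteins they encode bind receptors or JAKs, block them or mark them for degradation through a SOCS box, and so close a negative feedback loop. Pim1, a serine/threonine kinase, and Bcl2l1, which encodes the anti-apoptotic protein Bcl-xL, are target genes tied to growth and survival. In macrophages Socs3 is known as a response gene of STAT3 downstream of IL-6 and IL-10, and Cish as one of STAT5 downstream of GM-CSF.

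Peritoneal macrophages of wild type mice were cultured in normal medium or in medium containing 30% conditioned medium of 4T1 cells (4T1-CM), a mouse mammary carcinoma line. Each medium held the vehicle DMSO or 10 µM CH223191, an antagonist of the aryl hydrocarbon receptor (AHR). Values of the 4 libraries are listed in a fixed order, first normal medium (vehicle, then CH223191) and then 4T1-CM (vehicle, then CH223191). 1 RNA-seq library was made per condition, so there are 4 libraries and no replicates, and the duration of culture is not given in the sources used here. The methods describe macrophages collected from the peritoneum of young adult BALB/c mice after thioglycollate, which were given the compound before and during exposure to 4T1-CM, and the libraries are of bulk RNA. Conditioned medium carries whatever the tumour cells released and lacks whatever they consumed, and normal medium without tumour cells was its control.

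The libraries held 15535405 to 17557127 reads assigned to genes, TMM scaling factors ran from 0.986 to 1.03, and 17395 to 18665 genes were detected. All 7 macrophage markers (Adgre1, Csf1r, Cd68, Lyz2, Itgam, Mertk and Fcgr1) had at least 255 reads in every library, and their summed level was 14028 and 18261 CPM in normal medium and 37499 and 40034 CPM in 4T1-CM. Lyz2 made up most of these sums (11888, 15185, 32957 and 35571.5 CPM). Of the others, Adgre1 was at 257, 246, 1024 and 872 CPM and Mertk at 54.0, 68.1, 71.7 and 88.9 CPM. The T cell genes Cd3d, Cd3e, Cd3g, Trac and Cd8a were at 0 reads in all 4 libraries. So were the mature eosinophil genes Epx, Prg2 and Ear1 and the neutrophil genes Ly6g, S100a9 and Retnlg. Other genes of these lists had reads, such as Cd4 (11, 6, 10 and 3) and Siglecf (251, 221, 105 and 88). Of the neutrophil list, S100a8 had 99, 190, 560 and 412 reads and Csf3r had 929, 959, 1521 and 1759. Mmp8, of the same list, had 35, 21, 2142 and 759 reads.

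Parts of the proximal promoters of 3 of the feedback genes are shown, because the matches in them bear on which members carry the core sequence that STAT proteins bind, TTCNNNGAA, where N is any base. The sequences are RefSeq's for the C57BL/6J reference assembly GRCm38.p6, run 5′ to 3′ on the strand of the gene, and have matches to TTCNNNGAA in capitals. The Cish sequence is chr9:107296409-107296678 on the plus strand, the Socs3 sequence is chr11:117969367-117969616 on the minus strand, and the Socs1 sequence is chr16:10785537-10785786 on the minus strand.
Cish: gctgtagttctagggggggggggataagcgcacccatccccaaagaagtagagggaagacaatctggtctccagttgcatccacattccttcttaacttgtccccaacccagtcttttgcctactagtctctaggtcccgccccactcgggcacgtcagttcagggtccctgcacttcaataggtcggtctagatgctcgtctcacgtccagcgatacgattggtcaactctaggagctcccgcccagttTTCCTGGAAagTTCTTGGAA
Socs3: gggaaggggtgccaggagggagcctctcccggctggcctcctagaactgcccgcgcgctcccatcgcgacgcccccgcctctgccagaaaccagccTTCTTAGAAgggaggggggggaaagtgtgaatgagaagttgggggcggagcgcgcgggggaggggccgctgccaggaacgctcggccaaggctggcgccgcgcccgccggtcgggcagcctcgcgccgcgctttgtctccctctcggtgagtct
Socs1: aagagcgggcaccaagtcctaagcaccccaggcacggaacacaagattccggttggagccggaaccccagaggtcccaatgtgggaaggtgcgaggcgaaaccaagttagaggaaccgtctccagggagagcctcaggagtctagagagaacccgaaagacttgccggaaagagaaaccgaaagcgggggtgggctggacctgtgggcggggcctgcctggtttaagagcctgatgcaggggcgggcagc
Within windows reaching from 250 bases before to 50 bases after an annotated start, Cish had 2 matches, TTCCTGGAA at chr9:107296659-107296667 and TTCTTGGAA at chr9:107296670-107296678. The first begins at position 1 of the RefSeq transcript and the second at position 12. Socs3 had 1 match, TTCTTAGAA, which begins 154 bases before its start, at chr11:117969512-117969520. TTCNNNGAA reads the same on both strands, and it occurs in 8.29% of the 32817 promoter windows in the table and at least 2 times in 0.457% of them. The windows of Socs1, Pim1 (2 starts) and Bcl2l1 (3 starts) had no match, and Socs2 had no entry. The core of the AHR response element, GCGTG, searched on both strands, occurred in 2 of the Bcl2l1 windows and in none of the windows of Cish, Socs1, Socs3 or Pim1, beside 32.4% of all windows. A match is a description of these letters and says nothing on binding in these cells, and the sequence of the strain used was not checked.

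The first question was how the members differed between 4T1-CM and normal medium. Socs3 was far higher in 4T1-CM, Socs2 and Cish were higher at low levels, Bcl2l1 was lower, and Socs1 and Pim1 were less than 2-fold different, with DMSO and with CH223191 alike. In each comparison 3 of the 6 members were at least 2-fold higher and 1 was at least 2-fold lower. Of the 3 higher members, Cish was kept only through the 4T1-CM libraries. Its call follows from that filter, and nothing is read from the count. Among all 13715 genes, 12.2% were higher and 6.11% lower by that measure in the comparison with DMSO, and 12% and 7.86% in the comparison with CH223191. The comparisons share no library, and 8.18% of genes were 2-fold or more higher in both and 3.38% lower in both. The median log2 ratio of the members was 0.77 with DMSO and 1.67 with CH223191 (1.57 with Cish at its lower bound). Over all genes it was 0.0082 and 0.016, and the medians of the members include Cish.

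**Figure D1:**
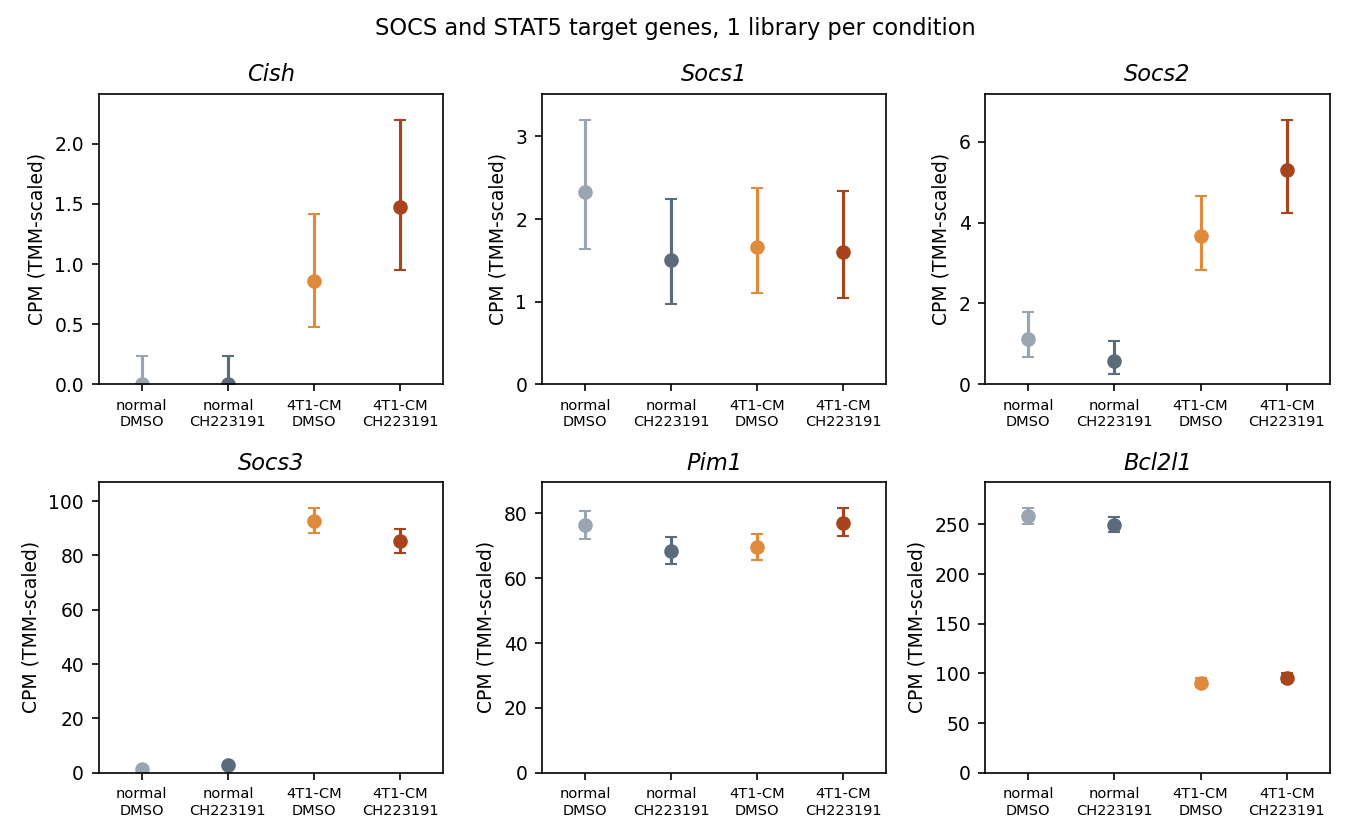
Level of each member in each of the 4 libraries, in CPM scaled by TMM on linear axes that start at 0, with 95% exact Poisson limits that cover counting error only. Socs3 sits at 1.25 and 2.77 CPM in normal medium and at 92.7 and 85.3 CPM in 4T1-CM, Bcl2l1 at 258 and 249.6 CPM against 90.6 and 95.8 CPM, and Cish has no read in normal medium.

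Socs3 (ENSMUSG00000053113, chr11:117966079-117970047, minus strand), which encodes an inhibitor of gp130 and JAK signalling, had 20 and 44 reads in normal medium, without and with CH223191, and 1622 and 1385 reads in 4T1-CM. These are 1.25, 2.77, 92.7 and 85.3 CPM. Both 4T1-CM libraries were far above both libraries in normal medium. With DMSO the log2 ratio was 6.17 (95% interval of the counts 5.57 to 6.92), or 72.1-fold, and with CH223191 it was 4.93 (4.51 to 5.41), or 30.5-fold. These ratios were above those of 99.8% and 99.5% of the genes compared.

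Cish (ENSMUSG00000032578, chr9:107296026-107302784, plus strand), the founding member of the family and a feedback inhibitor of STAT5 signalling, had 0 reads in both libraries in normal medium, and in 4T1-CM it had 15 reads without and 24 with CH223191. In CPM the levels in 4T1-CM were 0.857 and 1.48. Against a floor of 3 reads per library, Cish was at least 4.55-fold higher in 4T1-CM with DMSO and at least 7.83-fold higher with CH223191. The 95% interval of these ratios, which also holds the counting error of the reads in 4T1-CM, starts lower, at 1.71 and 2.56 on the log2 scale. The floor of 3 reads is 0.188 and 0.189 CPM in normal medium, and the upper Poisson limits of 0 reads there are 0.231 and 0.232 CPM, so a level below these was not detectable at this depth. In the GENCODE M21 annotation 11.5% of the exonic bases of Cish are shared with Gm17040 and Gm17041 on the opposite strand, both listed at 0 reads. Of the distinct 50-base stretches in its transcripts, 9.35% also occur on either strand in transcripts of 514 other genes. How reads in such shared stretches were assigned is not stated, so the Cish counts are uncertain to that extent.

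Socs2 (ENSMUSG00000020027, chr10:95385362-95417180, minus strand), best known as the brake on growth hormone signalling through STAT5, had 18 and 9 reads in normal medium, without and with CH223191, and 64 and 86 reads in 4T1-CM. The corresponding levels were 1.13, 0.566, 3.66 and 5.29 CPM. Both 4T1-CM libraries were above both normal medium libraries. The log2 ratio was 1.67 (0.92 to 2.54) with DMSO, or 3.18-fold, and 3.16 (2.23 to 4.40) with CH223191, or 8.93-fold. Of the distinct 50-base stretches in Socs2 transcripts, 4.58% also occur on either strand in transcripts of 127 other genes.

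Socs1 (ENSMUSG00000038037, chr16:10782240-10785536, minus strand), an inhibitor of JAKs and of interferon signalling, had 37 and 24 reads in normal medium and 29 and 26 reads in 4T1-CM. Its level stayed between 1.51 and 2.32 CPM. The log2 ratio of 4T1-CM to normal medium was -0.48 (-1.24 to 0.25) with DMSO and 0.08 (-0.77 to 0.95) with CH223191. Both intervals include 0, and their width leaves room for differences in either direction.

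Of the targets outside the family, Pim1 (ENSMUSG00000024014, chromosome 17, plus strand) had 1219, 1088, 1218 and 1253 reads in the same order of libraries, or 76.5, 68.4, 69.6 and 77.1 CPM. The media overlapped, since the normal medium library with DMSO lay between the 4T1-CM libraries. The log2 ratio of 4T1-CM to normal medium was -0.14 (-0.25 to -0.02) with DMSO and 0.17 (0.05 to 0.29) with CH223191. In the GENCODE M21 annotation 14.5% of the exonic bases of Pim1 are shared with Gm26885, which is on the opposite strand and listed at 0 reads.

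Bcl2l1 (ENSMUSG00000007659, chr2:152780668-152831728, minus strand) had 4114 and 3969 reads in normal medium and 1586 and 1556 in 4T1-CM. Its levels were 258 and 249.6 CPM in normal medium and 90.6 and 95.8 CPM in 4T1-CM. The log2 ratio was -1.51 (-1.59 to -1.43) with DMSO and -1.38 (-1.47 to -1.30) with CH223191, which is 2.85-fold and 2.61-fold lower. The table counts whole genes, so the long isoform that encodes Bcl-xL and the short pro-apoptotic isoform were not told apart.

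**Figure D2:**
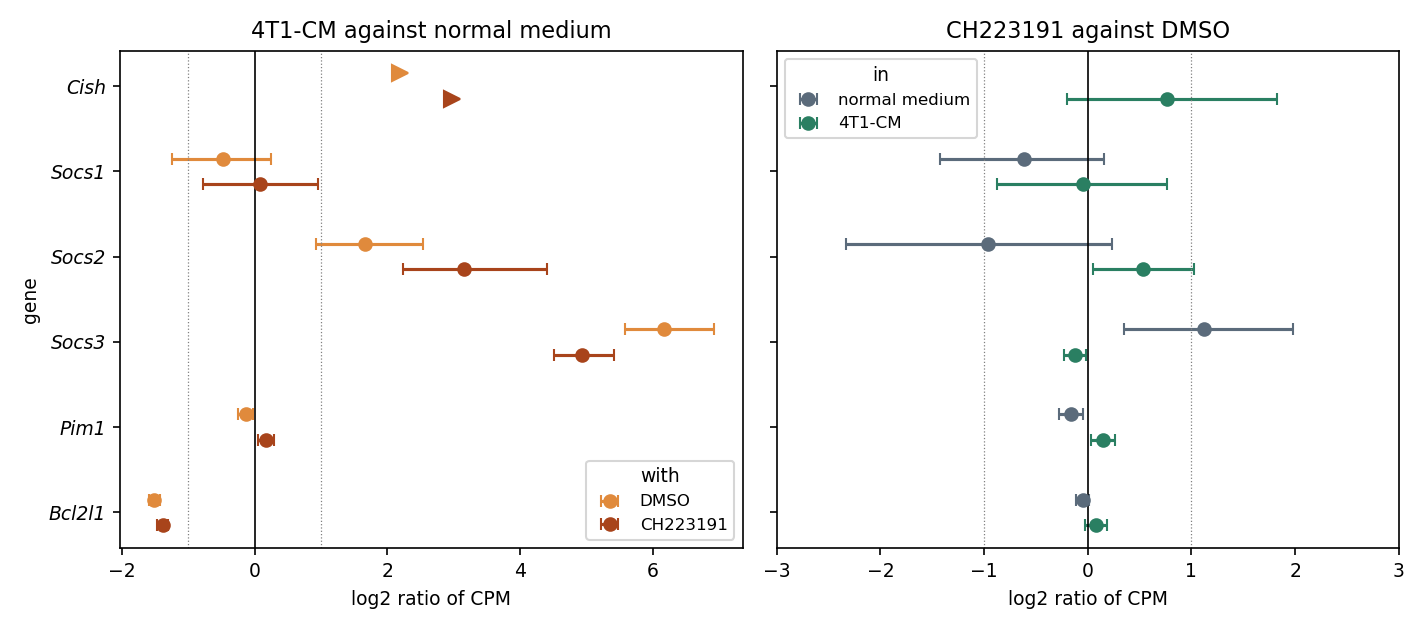
Log2 ratio of each member in the 4 comparisons, with the 95% interval of the counts, which covers counting error only. Triangles are lower bounds for Cish, which has 0 reads in normal medium, and the 4T1-CM ratios of Socs3 (6.17 and 4.93) stand apart from those of Socs1 and Pim1, which lie between -0.48 and 0.17.

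In these bulk libraries, fewer cells of a type and less RNA per cell cannot be told apart. Markers of other cell types also differed between the media. The 9 neutrophil markers, 4 of them kept, summed to 67.6 and 74.6 CPM in normal medium and to 242 and 181 CPM in 4T1-CM, with Mmp8 reaching 122 CPM and Ly6g, S100a9 and Retnlg at 0 in every library. The 5 fibroblast markers summed to 57.3 and 27.0 CPM in normal medium and 145 and 123 CPM in 4T1-CM, while the 5 B cell markers summed to 20.2 and 34.3 CPM against 7.94 and 5.29 CPM and the 7 eosinophil markers to 16.2 and 14.6 CPM against 6.28 and 5.97 CPM. The NK cell and ILC list summed to 520 to 740 CPM, nearly all of it Il7r, and Ncr1 and Klrd1 were at 0. The 6 T cell markers summed to at most 0.690 CPM, the 5 mast cell markers to at most 0.185 CPM, the 4 dendritic cell markers to at most 1.94 CPM, the 4 mesothelial markers to at most 1.32 CPM and the 5 epithelial markers to at most 1.35 CPM. Their part in the differences of the members was not tested.

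Genes can be compared with each other only per length, for which TPM (transcript abundance per length, from the gene lengths in the table) was used. In normal medium with DMSO the order was Bcl2l1 (177 TPM), Pim1 (91.0 TPM), Socs1 (2.51 TPM), Socs3 (1.36 TPM), Socs2 (0.372 TPM) and Cish (0 TPM). In 4T1-CM with DMSO, Socs3 stood first at 89.4 TPM (95% Poisson limits 85.1 to 93.8), above Pim1 at 73.6 TPM (69.5 to 77.8) and Bcl2l1 at 55.1 TPM, and Socs1, Socs2 and Cish followed at 1.59, 1.07 and 0.372 TPM. With CH223191 in 4T1-CM, Socs3 at 81.0 TPM (76.8 to 85.4) and Pim1 at 80.3 TPM (75.9 to 84.9) were neighbours that did not differ beyond counting error, and Bcl2l1 was at 57.4 TPM. The table gives Pim1 2638 bases where GENCODE M21 has 3362 exonic bases, while the lengths of the other members are the same in both. With the longer length, an alternative added after seeing the data, Pim1 was at 57.7 TPM (54.5 to 61.1) in 4T1-CM with DMSO and at 63.0 TPM (59.6 to 66.6) with CH223191, below Socs3 in both. Socs2 at 1.53 TPM and Socs1 at 1.51 TPM were likewise level there, and Cish was at 0.632 TPM (0.405 to 0.941). For Socs2, Cish and Socs1 the lengths used (9531, 6419 and 2908 bases) join the exons of all annotated isoforms. Which isoforms were expressed was not measured, so the order of these genes depends on those lengths.

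Across the whole family of 8 genes, which adds Socs4, Socs5, Socs6 and Socs7, the summed level was 80.8 and 65.6 TPM in normal medium and 154 and 149.8 TPM in 4T1-CM. Socs3 made up 1.69% and 4.14% of that sum in normal medium and 58.1% and 54.1% in 4T1-CM. In normal medium the largest share belonged to Socs6, a regulator of receptor tyrosine kinases, at 31.1% and 33.9%, and in 4T1-CM its share was 10.7% and 12.6%. The 4 added genes themselves were less than 2-fold different in both media comparisons, with log2 ratios from -0.44 to 0.59 and medians of -0.12 with DMSO and 0.091 with CH223191. Socs4 had 711, 516, 773 and 794 reads, Socs5 401, 342, 474 and 404, Socs6 1048, 1026, 848 and 921, and Socs7 482, 475, 454 and 476.

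**Figure D3:**
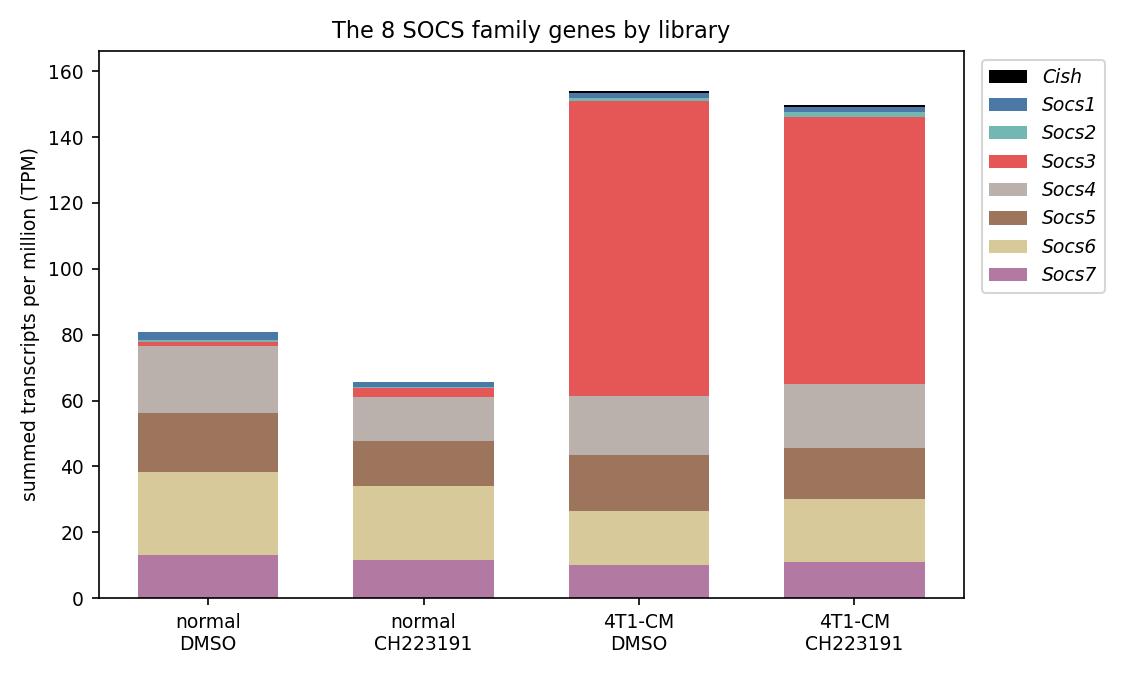
Level of the 8 SOCS family genes in each library, in TPM, as stacked bars that start at 0. Socs3 goes from 1.36 and 2.72 TPM in normal medium to 89.4 and 81.0 TPM in 4T1-CM, and the summed level goes from 80.8 and 65.6 to 154 and 149.8 TPM.

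The second question was whether CH223191 changed the level of the members within a medium. In normal medium Socs3 was at least 2-fold higher with CH223191, on 44 against 20 reads, and no other member reached 2-fold. Both calls lie near the threshold, since Socs3 was at 0.98 with a prior count of 5 and Socs2 at -1.01 when libraries were scaled by total counts. The log2 ratio of Socs3 was 1.12 (0.35 to 1.98), while Socs2 (-0.96, from -2.33 to 0.23), Socs1 (-0.61, from -1.43 to 0.16), Pim1 (-0.16, from -0.28 to -0.04) and Bcl2l1 (-0.05, from -0.11 to 0.01) lay below 0. Among all genes 4.84% reached 2-fold on the higher side and 3.31% on the lower side in this comparison. Cish had no read in either library, and no ratio is given.

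In 4T1-CM no member was 2-fold different between CH223191 and DMSO, beside 2.75% of all genes on the higher side and 2.66% on the lower side. Cish was at 24 reads with CH223191 and 15 with DMSO (log2 ratio 0.76, from -0.20 to 1.82), and Socs2 at 86 and 64 reads (0.53, from 0.05 to 1.02). Socs3 was at -0.12 (-0.22 to -0.02), Pim1 at 0.15 (0.03 to 0.26), Bcl2l1 at 0.08 (-0.02 to 0.18) and Socs1 at -0.05 (-0.87 to 0.77). No member was at least 2-fold different with CH223191 in both media, as were 0.649% of all genes on the higher side and 0.481% on the lower side. The 5 members with a ratio had a median log2 ratio of -0.16 in normal medium, against 0.0034 for all genes, and all 6 members had 0.11 in 4T1-CM, against 0.0039.

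The response to 4T1-CM with CH223191 minus that with DMSO was 1.49 for Socs2 (95% counting interval 0.24 to 2.73) and -1.24 for Socs3 (-2.01 to -0.47) on the log2 scale. In both genes the difference rests on few reads in normal medium, 18 and 9 for Socs2 and 20 and 44 for Socs3. It was 0.31 (0.15 to 0.47) for Pim1, 0.13 (0.01 to 0.25) for Bcl2l1 and 0.56 (-0.50 to 1.63) for Socs1. With 1 library per condition these intervals hold no spread between cultures, and whether the responses differ was not tested.

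An additive fit over the 4 libraries, with medium and inhibitor as terms, takes the departure from additivity as its error and has 1 residual degree of freedom. The error of each gene was estimated with information from all genes. The p values hold no spread between cultures of the same condition. By edgeR's quasi-likelihood test with Benjamini-Hochberg adjustment over the 13715 genes, 16.4% of genes were called higher and 16.2% lower in 4T1-CM. Socs3 was called higher (log2 fold change 5.47, adjusted p = 7.67e-08), as was Socs2 (2.38, adjusted p = 0.00124), and Bcl2l1 was called lower (-1.45, adjusted p = 1.46e-05). Socs1 (-0.22, adjusted p = 0.691) and Pim1 (0.02, adjusted p = 0.929) were not called by edgeR. No p is given for Cish, which was kept only through the libraries in which it was high. DESeq2's Wald test called 9.14% of 13183 genes higher and 9.39% lower, with adjusted p of 6.27e-18 for Socs3, 0.00307 for Socs2 and 5.82e-16 for Bcl2l1. For the inhibitor, edgeR called 0.0729% of genes higher and 0.00729% lower, and DESeq2 called 0.127% and 0.00975% of 10258 genes. No member was called by edgeR, nor by DESeq2 among Socs3, Pim1 and Bcl2l1, since DESeq2 gave no adjusted p for Cish, Socs1 and Socs2. Apart from Cish, the lowest unadjusted p of a member for the inhibitor by edgeR was 0.389, for Socs1. None of these members had one under 0.05, beside 880 of the 13715 genes.

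**Figure D4:**
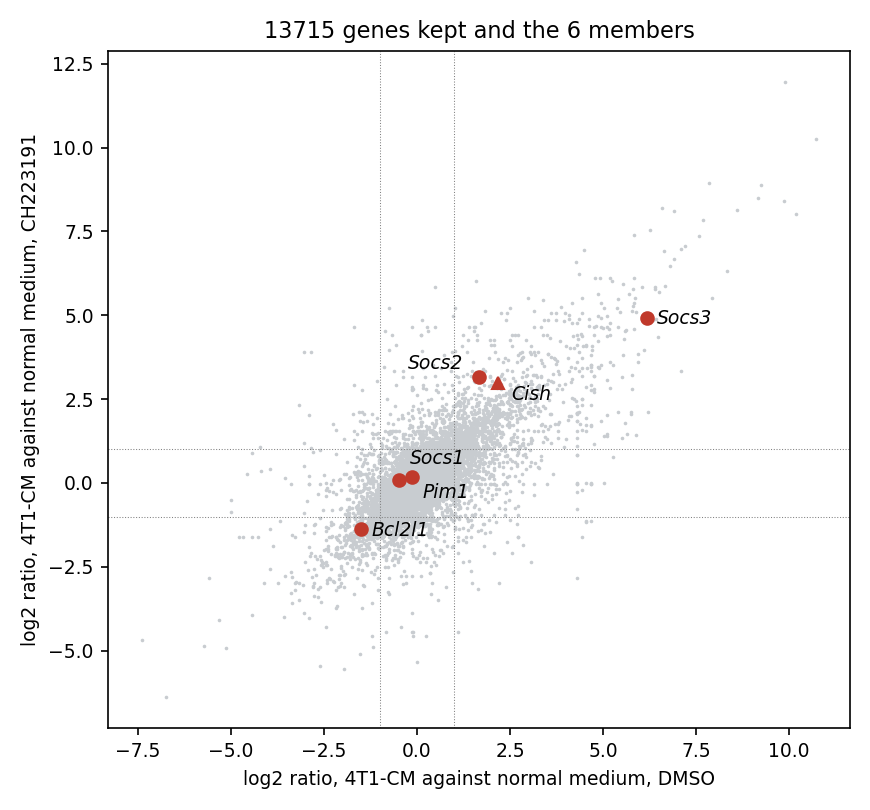
Log2 ratio of 4T1-CM to normal medium with DMSO (x axis) and with CH223191 (y axis) for the 13715 genes compared (grey) and the 6 members (red), with dotted lines at 2-fold. Cish is drawn as a triangle at its lower bounds, and Socs3 lies at 6.17 and 4.93, Bcl2l1 at -1.51 and -1.38, and Socs1 and Pim1 near 0.

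Upstream of these genes, 11 genes of the Janus kinases and STATs were read, all kept. With DMSO 1 of them was at least 2-fold higher in 4T1-CM, beside 12.2% of all genes. With CH223191 3 were (Jak2, Jak3 and Stat4), beside 12% of all genes. None was 2-fold lower in either, beside 6.11% and 7.86%. Stat4 alone was 2-fold higher in both, on 2, 1, 9 and 11 reads, beside 8.18% of all genes. It was kept only through the 4T1-CM library with CH223191, so nothing is read from its call. The median log2 ratio was 0.69 with DMSO and 0.36 with CH223191. Stat5a, one of the pair of STAT5 genes, was at -0.27 (-0.46 to -0.08) and 0.02 (-0.19 to 0.22), and Stat5b was at -0.10 (-0.22 to 0.01) and -0.03 (-0.15 to 0.09). Jak2, the kinase of the GM-CSF receptor, was at 0.98 and 1.24, and Stat3, the transducer of IL-6 family cytokines, at 0.87 and 0.83. The partners of the SOCS box in its ubiquitin ligase (Cul5, Elob, Eloc and Rnf7) had no gene at 2-fold, with medians of 0.019 and -0.26. Of 11 other inhibitors of JAK-STAT signalling, none was 2-fold different in both comparisons, and medians were -0.083 and -0.027. Usp18, an interferon-induced inhibitor of interferon receptor signalling, was at 1.79 with DMSO and 0.63 with CH223191.

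Among 20 cytokine receptor genes, 5 were at least 2-fold higher in both comparisons, beside 8.18% of all genes. None was lower in both, beside 3.38% of all genes, and the medians were 0.57 and 0.93. Of the 5, Osmr was kept only through the 4T1-CM libraries, so its call as higher follows from the filter. Il4ra, the receptor chain shared by IL-4 and IL-13, was at 2.26 (2.11 to 2.42) and 2.39 (2.24 to 2.55), and Il21r was at 3.49 and 2.96. Osmr, the oncostatin M receptor chain, had 8, 3, 54 and 60 reads, and Ifnar2 was at 1.17 and 1.02. Csf2rb2 was at 1.16 and 1.04 and Csf2rb, the common beta chain for GM-CSF, IL-3 and IL-5, at 1.03 and 0.96. These 2 are close copies, so their split is uncertain. Csf2ra, the alpha chain for GM-CSF, was at -0.88 and -0.46, and Il6st, which encodes gp130, at -1.05 and -0.90.

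Of 17 cytokine genes, 6 were kept. Of these, 5 were at least 2-fold higher in both comparisons, beside 8.18% of all genes, but Il6, Lif and Il7 were kept only through the 4T1-CM libraries, and nothing is read from the count. Osm, which encodes the gp130 cytokine oncostatin M, had 66 and 74 reads in normal medium and 327 and 315 in 4T1-CM (2.17 and 2.05). Lif had 3, 6, 44 and 36 reads, Il6 0, 0, 10 and 10, Il4 12, 16, 50 and 71, and Il7 9, 4, 27 and 16. Il15 had 134, 182, 138 and 150 reads. Csf2, which encodes GM-CSF, was at 0 in all 4 libraries.

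Of 12 other STAT5 targets, 11 were kept, with medians of 0.041 and -0.042. In both comparisons 2 were at least 2-fold higher and 1 was lower, beside 8.18% and 3.38% of all genes. Besides Osm, Ccnd2 was the higher one, on 15, 3, 36 and 31 reads. Ccnd1, which encodes the G1 cyclin D1, was lower, with 295 and 240 reads in normal medium and 91 and 76 in 4T1-CM. Myc, the growth regulator, was at -0.85 (-1.11 to -0.60) and -1.18 (-1.47 to -0.90), and Mcl1, a survival gene related to Bcl2l1, at 0.43 and 0.96. The kinases Pim2 (27, 39, 45 and 33 reads) and Pim3 (236, 163, 258 and 248 reads) were below 2-fold, as was Pim1, and their medians were 0.29 and 0.15.

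Of the 6 other anti-apoptotic genes of the BCL2 family, Bcl2a1a (3.03 and 2.57) and Bcl2a1d (2.06 and 1.22) were higher in both comparisons while Bcl2a1b was at -1.12 and -0.60. These are near-identical copies whose reads may be split unevenly by counting, so their separate values are uncertain. Bcl2 was at -0.07 and -0.04, and the medians of the 6 genes were 0.18 and 0.46. Of 10 pro-apoptotic genes, 8 were kept and Bmf alone (1.14 and 1.36) was at least 2-fold higher in both comparisons, with medians of -0.22 and -0.31. Of these BCL2 family genes and Bcl2l1, only Bcl2l1 was at least 2-fold lower in both. Among all genes 8.18% were higher in both and 3.38% lower in both, and nothing is read from these counts.

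**Figure D5:**
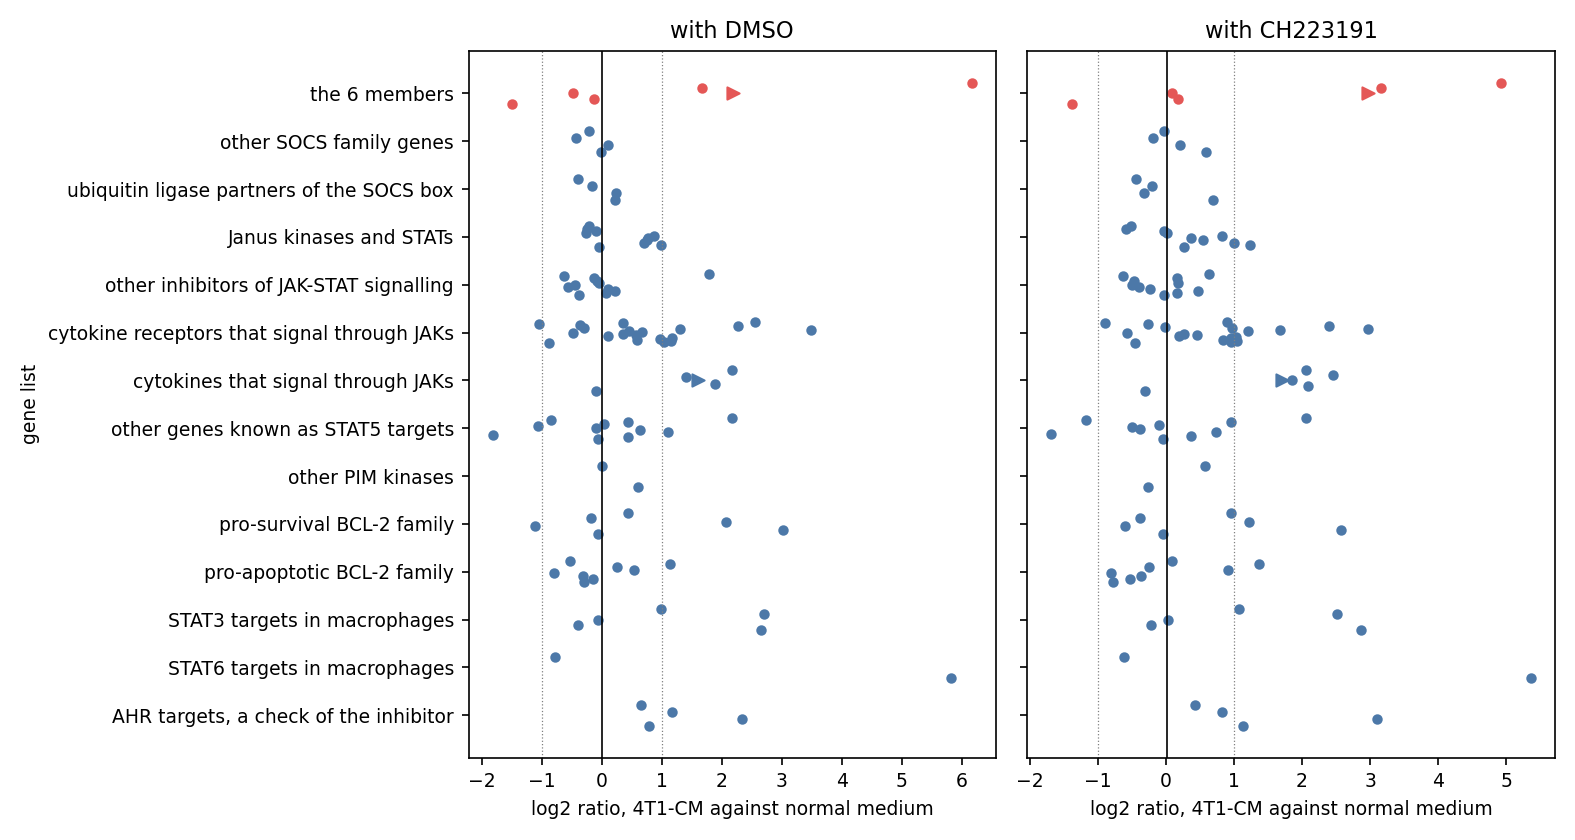
Log2 ratio of 4T1-CM to normal medium, with DMSO and with CH223191, for the genes of each list, with 1 point per gene and lower bounds as triangles. Genes with 3 reads or fewer in a library are left out unless drawn as a bound, and Socs3 at 6.17 and 4.93 and Arg1 at 5.82 and 5.36 are the highest of the points drawn.

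The genes whose levels across the 4 libraries were most like each member were found as the 3 with the smallest Euclidean distance between log2 CPM values centred on their mean, among the 9441 protein-coding genes that had 50 or more reads in each library. For Socs3 they were Saa3, an acute phase gene, at a distance of 0.23 with 209, 376, 13725 and 13223 reads, then Arg1 (0.41) and Cd38 (0.51). For Cish they were Cxcl16, Cd38 and Arg1 at 0.68, 0.72 and 0.74, and for Socs2 Abcb1a, Igfbp7 and Havcr2 at 0.49, 0.52 and 0.57. For Bcl2l1 they were Tecpr1, Rgs2 and Egr2 at 0.077, 0.086 and 0.091. Pim1 was nearest to Pja2, Cul9 and Grk6 at 0.016, 0.028 and 0.029, and Socs1 to Plxnc1, Cebpd and Ppp2cb at 0.032, 0.060 and 0.061. Over 4 libraries such likeness is a description of their levels. Cish had 0 reads in normal medium, so its log2 values there were set by the prior count. Nothing is read from its neighbours.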

How the data were processed

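RNA was extracted from the macrophages with TRIzol and 1 library per condition was sequenced. The deposited values are raw read counts, 1 whole number per gene and library without normalization, listed with gene lengths. The submitters' processing notes name HISAT2 2.0.5 and DESeq2. The counter, its strand setting and the genome build are not given for these libraries in the sources used here, and the table's coordinates are those of GRCm38. The 4 count columns were matched to samples by name. The members and gene lists were chosen with earlier results of these data known.

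A gene was kept if any library held 10 or more of its reads (13715 genes). Scaling used TMM (edgeR 4.0.16, R 4.3.3), and a prior count of 0.5 entered each log2 ratio. Called means at least 2-fold. Intervals are 95% exact Clopper-Pearson intervals of a gene's reads split between 2 libraries (for differences of ratios, a normal approximation) or exact Poisson limits, cover counting error only and compare libraries, not conditions. With 3 reads or fewer, reads are given, and a ratio to 0 reads is a lower bound against 3 reads. The 4T1-CM comparisons share no library with each other, nor do the CH223191 comparisons, but each comparison of media shares libraries with those of CH223191. The additive fits used edgeR and DESeq2 1.42.0. Genes named in the text are the members, the genes of the lists and the 3 genes most like each member. Alternatives were DESeq2 size factors, total counts, a prior count of 5, other filters and protein-coding genes alone. The result of 1 list is not reported here. The procedure was tested on simulated data. Exon overlaps are from GENCODE M21, promoters from RefSeq, read in Python 3.11.15 (numpy 2.4.6, pandas 2.3.3), and matplotlib 3.10.9 drew the figures.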

Additional observations from a re-analysis of the deposited data

Results flagged for a closer look

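For 4 members the ratio of CH223191 to DMSO had opposite signs in the 2 media. Whether the responses differ was not tested, since there is 1 library per condition. On the log2 scale, the response with CH223191 minus that with DMSO was 1.49 for Socs2, -1.24 for Socs3, 0.31 for Pim1 and 0.13 for Bcl2l1. For Bcl2l1 both ratios of CH223191 to DMSO had counting intervals that include 0. The Socs2 value rests on 18 and 9 reads in normal medium and the Socs3 value on 20 and 44.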

How the results depend on the processing

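For the members, 238 values were recomputed. Of these, 131 are ratios, 58 mean responses and 29 differences of responses under DESeq2 size factors, total counts, a prior count of 5, the other filters or protein-coding genes alone, and 20 are additive fits. All stayed within the counting interval of the reported value. The lower bounds of Cish do not involve the prior count, so their agreement under a prior count of 5 was fixed in advance. In 3 cases a mean response near 0 changed sign, which was Pim1 to 4T1-CM (0.018 to -0.0033) with no filter, Bcl2l1 to CH223191 (0.016 to -0.017) with total counts, and Socs2 to CH223191 (-0.21 to 0.089) in the edgeR fit. Counts of members changed in a few settings. When 10 reads were required in every library, the members at least 2-fold higher in 4T1-CM went from 3 to 1 with DMSO and with CH223191, because Cish and Socs2 were no longer kept. For CH223191 in normal medium, the members at least 2-fold higher went from 1 to 0 under a prior count of 5, and those lower from 0 to 1 (Socs2) with total counts.

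Over all genes, the counts at least 2-fold higher and lower were 1673 and 838 for 4T1-CM under the vehicle, 1648 and 1078 for 4T1-CM under CH223191, 664 and 454 for CH223191 in normal medium, 377 and 365 for CH223191 in 4T1-CM, 1122 and 463 for both comparisons of media, and 89 and 66 for both of CH223191. In the same order they were 4635 and 2535, 4367 and 2995, 2815 and 2260, 2555 and 2688, 2033 and 886, and 529 and 450 with no filter. They were 851 and 499, 869 and 677, 226 and 89, 83 and 53, 586 and 305, and 18 and 4 with 10 reads required in every library. For CH223191 they were 363 and 207, 161 and 160, and 22 and 14 with a prior count of 5, and 364 and 258, 156 and 210, and 28 and 32 among protein-coding genes. No paired analysis was possible because there is 1 library per condition and the labels carry no replicate numbers, and for the same reason no library could be left out. At this depth, 3 reads correspond to 0.171 to 0.189 CPM.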

Other observations

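Target genes of other STATs were also read in the same libraries. Of 5 STAT3 targets, all kept, Bcl3 and Nfil3 were at least 2-fold higher in both comparisons, beside 8.18% of all genes. The log2 ratios of 4T1-CM to normal medium were 2.65 under the vehicle and 2.87 under CH223191 for Bcl3. They were 2.70 and 2.52 for Nfil3 and 0.99 and 1.07 for Sbno2, and the medians were 0.99 and 1.07. Etv3 was at 90.1, 84.5, 68.5 and 72.9 CPM and Junb at 144, 154, 137 and 157 CPM. Of 6 STAT6 targets, 4 were kept. Arg1, which encodes arginase 1, had 520, 936, 32359 and 39348 reads (5.82 and 5.36), and Mrc1 had 2735, 2254, 1751 and 1503. Ccl24 was lower on 14, 15, 1 and 2 reads, but was kept only through the normal medium libraries, so nothing is read from it. The medians were -0.072 and 1.41, the second of which rests on Pdcd1lg2 with 1, 1, 2 and 16 reads.

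Of 5 AHR targets, 4 were kept. Cyp1b1 alone was at least 2-fold higher in 4T1-CM in both comparisons (2.33 and 3.11), beside 8.18% of all genes. Cyp1b1 had 65 reads in normal medium under the vehicle and 19 under CH223191, and 361 and 171 reads in 4T1-CM, so the log2 ratio of CH223191 to DMSO was -1.75 (-2.59 to -1.02) without 4T1-CM and -0.97 (-1.24 to -0.70) with it. Nqo1 had 28, 18, 70 and 33 reads and Ahrr 13, 10, 25 and 23. Tiparp was higher with CH223191 in normal medium (61.1 against 55.3 CPM) and lower in 4T1-CM (82.0 against 87.3 CPM). The medians of the 4 genes for CH223191 were -0.49 in normal medium and -0.53 in 4T1-CM, beside -0.16 for the 5 members with a ratio and 0.11 for all 6. Over all genes the medians were 0.0034 and 0.0039.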
